A study of Drosophila melanogaster with 12 samples.

Results

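The expression of 9 genes of the DNA replication machinery was followed in the larval fat body of Drosophila melanogaster on 4 sugar diets. They are Mcm2, Mcm5, Mcm6 and Mcm7 (subunits of the replicative helicase), dup (the fly Cdt1, which loads that helicase), CycE (Cyclin E), mus209 (PCNA, the sliding clamp of the polymerases) and RnrL and RnrS (the large and the small subunit of ribonucleotide reductase). The members were chosen by name, by exact spelling of the gene symbol, and all 9 were among the 9500 genes of the table. RNA was sequenced from fat bodies of female wandering larvae at the end of the last instar, in 3 biological replicates per diet. The tested diets were a high fructose diet (HFD, 1.7 M fructose), set against a control fructose diet (CFD, 0.3 M fructose), and a high glucose diet (HGD, 1.7 M glucose), set against a control glucose diet (CGD, 0.3 M glucose), so each sugar was the only one in its food. All larvae had the same genotype, the offspring of w1118 and UAS-Dcr2; r4-GAL4, in which r4-GAL4 drives Dicer-2 in the fat body, so every library, controls included, carried this driver. Larvae were compared at one developmental stage and not at one age, and the values come from whole dissected fat bodies, in which fewer cells of a type and less RNA per cell cannot be told apart.

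Fat body cells of the larva do not divide. They grow by the endocycle, in which gap phases alternate with rounds of DNA synthesis and no mitosis follows, so that the cells become polyploid. Before each round, the origin recognition complex, Cdc6 and Dup load the ring of MCM proteins onto DNA, and geminin holds Dup back. The transcription factor E2f with its partner Dp switches on S phase genes, among them those for PCNA, ribonucleotide reductase and MCM proteins, and Cyclin E with its kinase Cdk2 starts synthesis. Endocycling in the fat body depends on feeding and on insulin and TOR signalling. The larvae sampled were at the wandering stage, when by the study's account they leave the food. Whether their fat body cells still endocycled was not tested.

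The value used is the deposited signal, a read number that the authors adjusted to a common library size for each sugar separately. The reads behind the values were recovered for this report and gave 3484906 to 11134931 reads per library, summed over the 9500 listed genes. These totals are not the sequencing depth. The members rested on 25 to 357 reads in a library, with a median of 133, so none of them was near the floor and none was lost to the filter on low values. The libraries were not all alike. HFD replicate 2 had the fewest reads on the listed genes. The rRNA gene CR41548 took 8.67% of these reads, against at most 0.306% in any other library. Another rRNA gene, CR41583, took 12.9% of those of HGD replicate 1, against 4.91% to 9.39% in the other libraries. CFD replicate 1 had the highest value of its diet for 7 of the 9 members and the lowest for CycE and dup, and it also had the highest mean level of larval hemocyte markers among the CFD libraries (7.93, against 7.28 in each of the other 2, on the log2 scale) and the lowest of muscle markers (9.92, against 10.69 and 10.79). Counts of the members without each library are therefore given beside the main ones, and ranges for most of the gene lists.

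On high fructose, 5 of the 9 genes fell: mus209, RnrS, Mcm5, Mcm6 and Mcm7. Their log2 fold changes lay between -1.004 and -0.62. On high glucose, 7 of the 9 fell, the same 5 and also Mcm2 and RnrL, with log2 fold changes between -1.11 and -0.57. CycE and dup passed the test on neither sugar, and no member rose. A gene was called where limma, fitted to log2(value + 1) of the 12 libraries together, gave an adjusted p under 0.05 after Benjamini-Hochberg correction over the 9500 genes. Of all genes tested, 9.93% were called lower on HFD than on CFD and 12.9% were called lower on HGD than on CGD. The shares called higher were 9.4% on HFD and 16.7% on HGD. Every HFD library lay below every CFD library for 5 members, against 19.1% of all genes, and every HGD library lay below every CGD library for 7 members, against 20.8% of all genes. The median log2 fold change of the 9 members was -0.62 for each sugar, while that of all genes was -0.02 for fructose and 0.01 for glucose.

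The fructose count depended on single libraries. Without CFD replicate 1 it was 2 (Mcm6 and mus209), and it was 3 (Mcm6, mus209 and RnrS) without CFD replicate 3, without HFD replicate 1 or without HFD replicate 3, as well as when only the fructose libraries were fitted. Without HFD replicate 2, 4 members were called, with Mcm2 in and Mcm7 and RnrS out. The glucose count of 7 was 3 without CGD replicate 2 and 4 without CGD replicate 1 or without HGD replicate 3. Mcm6 and mus209 were called on both sugars in all 21 alternatives run for each, and Mcm7 in all 21 on glucose.

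**Figure D1:**
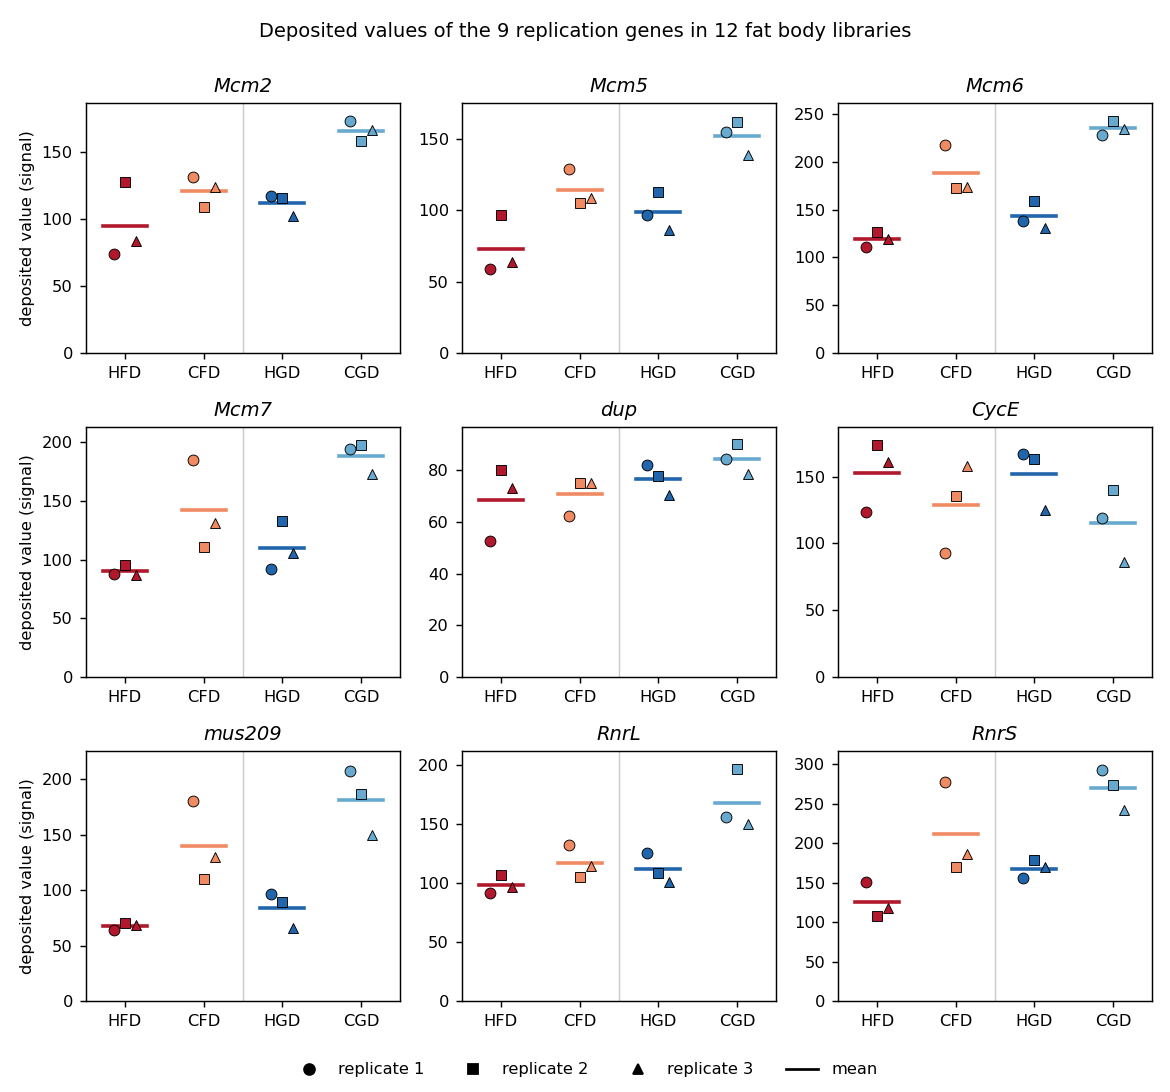
Deposited value (signal, vertical axis from 0) of each of the 9 genes in the 3 libraries of each diet; marker shapes are replicates 1 to 3 and lines are means. For mus209 the 3 HFD libraries lie between 64.2 and 70.7, below all CFD libraries, while for CycE and dup the diets overlap on both sugars.

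The MCM complex is a ring of 6 related subunits, Mcm2 to Mcm7, that is loaded at origins and unwinds DNA at the fork. Mcm6 (X, positions 6674387 to 6677176 of BDGP6.54, plus strand, a gene of 1 exon) had 111, 127 and 119 in the HFD libraries and 218, 172 and 173 in the CFD libraries. All HFD libraries were below all CFD libraries, and the log2 fold change was -0.65 ± 0.14 (SE), with an adjusted p of 0.0067 in limma. In the HGD libraries it had 138, 159 and 131, and in the CGD libraries 228, 242 and 234. The gap between the glucose diets was wider than the spread within either, with a log2 fold change of -0.72 ± 0.14 (adjusted p = 0.0024).

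Mcm7 (3L, positions 8891596 to 8894310, plus strand) had 87.7, 95.8 and 86.7 on HFD and 185, 111 and 131 on CFD. The HFD libraries were close together, and the CFD libraries were spread wide, with replicate 1 far above the others. Its log2 fold change was -0.62 ± 0.19 (adjusted p = 0.0364). The call held in 13 of 21 alternatives, and it was lost with only the fructose libraries (adjusted p = 0.0631) and without CFD replicate 1, CFD replicate 3, CGD replicate 2 or any one of the 3 HFD libraries, with adjusted p from 0.0509 (without CGD replicate 2) to 0.151 (without CFD replicate 1). On HGD it had 91.7, 133 and 106, and on CGD 194, 197 and 173, which again did not overlap, with a log2 fold change of -0.78 ± 0.19 (adjusted p = 0.0085). Over 947 bases its exons overlap an antisense RNA of the opposite strand, asRNA:CR45871, and since no source used here gives the strand setting of the counting, reads of the pair cannot be told apart.

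Mcm5 (3R, positions 10788524 to 10791150, plus strand) had 59.0, 96.9 and 63.7 on HFD, against 129, 105 and 109 on CFD. HFD replicate 2 lay just under the lowest CFD library, and the log2 fold change was -0.66 ± 0.19 (adjusted p = 0.0279). The HGD libraries had 96.9, 113 and 86.0 and the CGD libraries 155, 162 and 138, with no overlap and a log2 fold change of -0.62 ± 0.19 (adjusted p = 0.0276).

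Mcm2 (3R, positions 8264970 to 8267924, plus strand) was the helicase member whose call differed by sugar. It had 73.7, 127 and 83.6 on HFD and 131, 109 and 124 on CFD, so HFD replicate 2 lay within the CFD range. The log2 fold change was -0.39 with a 95% interval of -0.79 to 0.01 (adjusted p = 0.163), and without HFD replicate 2 it was -0.62 (adjusted p = 0.0251). On HGD it had 117, 116 and 103, and on CGD 173, 158 and 167, which formed separate, narrow groups with a log2 fold change of -0.57 ± 0.19 (adjusted p = 0.0357). That call held in 14 of 21 alternatives, and it was lost without any one of the 3 HGD and 3 CGD libraries, with adjusted p from 0.0517 (without HGD replicate 1) to 0.109 (without HGD replicate 3). The difference between the responses to the 2 sugars was -0.18, with an interval of -0.75 to 0.39, and did not pass the test.

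Summed over the 4 members, the MCM values were 331, 447 and 353 in the HFD libraries and 663, 497 and 537 in the CFD libraries. The sums were 444, 521 and 425 on HGD and 749, 759 and 712 on CGD. The sums did not overlap between high-sugar and control diet on either sugar. The other 2 subunits of the ring are Mcm3 and dpa, the fly Mcm4, which were listed with the licensing genes and are not members. Per kilobase of exon, the 6 subunits together had 222 ± 36.3 on HFD and 339 ± 46.7 on CFD (SD, n = 3), and, on the glucose values brought to the fructose scale, 232 ± 35.6 on HGD and 370 ± 18.3 on CGD. Mcm6 held nearly the same mean share of that sum on each diet, 19.4% on HFD, 19.9% on CFD, 19.4% on HGD and 19.9% on CGD. Mcm3 held 17.5% on HFD (15.3% to 19.2%), below its 21.04% on CFD (20.1% to 22.7%), while on HGD (13.2% to 20.5%) and CGD (17.1% to 19.5%) its shares overlapped.

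The loading factor passed the test on neither sugar. Dup binds MCM and brings it to the origin, and dup (2R, positions 15376619 to 15380988, minus strand) had 52.5, 79.9 and 73.1 on HFD and 62.4, 74.9 and 75.1 on CFD. It had 81.8, 77.6 and 70.4 on HGD and 84.3, 90.2 and 78.5 on CGD. The diets overlapped on both sugars. The log2 fold change was -0.06 for HFD over CFD (interval -0.45 to 0.32, adjusted p = 0.842) and -0.14 for HGD over CGD (interval -0.52 to 0.25, adjusted p = 0.595). Since the intervals reach down to these values, equal levels were not shown. The gene overlaps SRPK on the opposite strand over 158 bases, and reads there cannot be told apart.

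CycE passed the test on neither sugar, and its means were higher on both high-sugar diets. Cyclin E is the limiting partner of Cdk2, and its level must go down between rounds of the endocycle for origins to be loaded again. CycE (2L, positions 15727581 to 15748150, minus strand) had 123, 174 and 161 on HFD and 93.1, 135 and 158 on CFD. On HGD it had 167, 163 and 125, against 119, 140 and 86.2 on CGD. Each pair of diets overlapped, and the log2 fold change was 0.26 (interval -0.23 to 0.76, adjusted p = 0.463) on fructose and 0.41 (interval -0.08 to 0.91, adjusted p = 0.194) on glucose. With both sugars pooled it was 0.34 (adjusted p = 0.113). The size of these values was not stable: on fructose it was 0.048 without CFD replicate 1, 0.16 without HFD replicate 2, 0.43 without CFD replicate 3, 0.41 without HFD replicate 1 and 0.066 after scaling to library totals, and on glucose 0.22 without CGD replicate 3 and 0.19 after scaling to library totals. The exons of CycE overlap 2 non-coding RNAs of the opposite strand, asRNA:CR44866 over 150 bases and lncRNA:CR44974 over 92 bases.

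The clamp gene showed the lowest log2 fold change of the 9 on each sugar. PCNA, encoded by mus209, encircles DNA, holds the polymerase on its template and serves as a platform for ligase, flap endonuclease and chromatin assembly. The gene (2R, positions 20261754 to 20262883, minus strand, named PCNA in the current annotation) had 64.2, 70.7 and 68.9 on HFD, against 180, 110 and 130 on CFD. The HFD libraries lay within a narrow band, and each CFD library was above all of them. That band rests on 91, 25 and 66 reads, and 25 was the lowest number for any member. The log2 fold change was -1.004 ± 0.21 (adjusted p = 0.0044), a 2.005-fold lower level on HFD. On HGD it had 96.1, 89.7 and 65.5, and on CGD 207, 186 and 149, with no overlap and a log2 fold change of -1.11 ± 0.21 (adjusted p = 0.0016), a 2.15-fold lower level on HGD. Over all alternatives, leaving out each library included, the log2 fold change stayed between -1.20 and -0.81 on fructose and between -1.32 and -0.94 on glucose.

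Ribonucleotide reductase makes the deoxyribonucleotides that synthesis consumes, from RnrL, which holds the catalytic site, and RnrS, which holds the radical cofactor. RnrS (2R, positions 11983145 to 11985393, minus strand) had 151, 107.99 and 118 on HFD and 278, 170 and 186 on CFD. The diets did not overlap, and the log2 fold change was -0.73 ± 0.19 (adjusted p = 0.0159). It had 156, 178 and 169 on HGD, against 293, 273 and 242 on CGD, with a log2 fold change of -0.68 ± 0.19 (adjusted p = 0.0164).

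RnrL (2L, positions 10325026 to 10327943, minus strand) passed the test on glucose. On HGD it had 126, 109 and 101, all below the 156, 197 and 150 on CGD, with a log2 fold change of -0.58 ± 0.16 (adjusted p = 0.0158). On HFD it had 91.8, 107 and 97.1, and on CFD 132, 105 and 114, where one HFD library lay above the lowest CFD library. The log2 fold change on fructose was -0.24 (interval -0.59 to 0.10, adjusted p = 0.312). Among the members RnrL had the lowest interaction value, with a difference of -0.33 between the glucose and the fructose response (interval -0.82 to 0.15, adjusted p = 0.937), so a response particular to glucose was not shown.

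**Figure D2:**
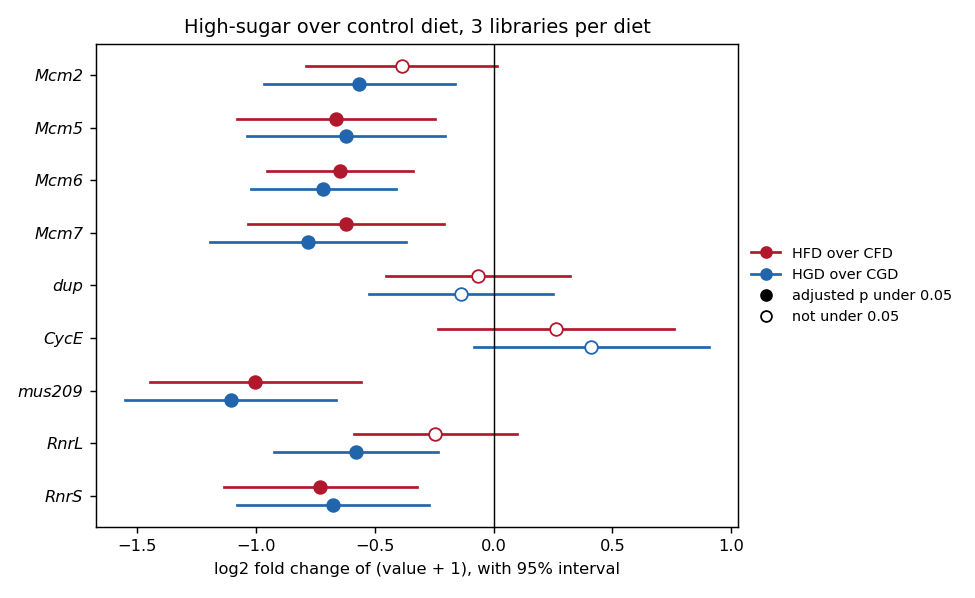
Log2 fold change of (value + 1) with its 95% interval for each gene, HFD over CFD above and HGD over CGD below it; filled points have an adjusted p under 0.05. Filled points number 5 for fructose and 7 for glucose, all left of 0, and the CycE intervals reach from -0.23 to 0.76 and from -0.08 to 0.91.

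Pooled over both sugars, which uses the same libraries again, 7 members were lower on high sugar than on control food, against 20.7% of all genes called lower. The log2 fold changes were -1.06 for mus209, -0.70 for Mcm7, -0.70 for RnrS, -0.68 for Mcm6, -0.64 for Mcm5, -0.48 for Mcm2 and -0.41 for RnrL. That count was 7 in every alternative, each library left out in turn included, and the members called were the same 7.

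Fructose and glucose were compared at each concentration after multiplying the glucose values by 0.874, since the sugars had been adjusted on separate scales. No member differed between CGD and CFD or between HGD and HFD in limma, where 0% of all genes were called, and no member had an unadjusted p under 0.05 in either comparison. Over all genes, 407 and 484 had an unadjusted p under 0.05. limma-voom on the recovered reads also called 0 members. The log2 fold changes of the members ranged from -0.35 (CycE) to 0.32 (RnrL) for CGD over CFD, and from -0.20 (CycE) to 0.26 (Mcm5) for HGD over HFD. The 95% intervals, which were not corrected for the number of genes, reached 0.31 to 0.50 on either side. Differences of that size between the sugars, and larger ones, could therefore be missed by the corrected test. The response to high sugar also did not differ between the sugars for any member, again with 0% of all genes called and with 405 genes but no member at an unadjusted p under 0.05, and the intervals of the difference reached 0.43 to 0.70 on either side.

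Per kilobase of exon, levels could be set side by side between genes. On CFD the order was RnrS (133 ± 36.4, SD, n = 3), mus209 (131 ± 33.7), Mcm6 (67.3 ± 9.36), Mcm7 (58.0 ± 15.5), Mcm5 (46.6 ± 5.20), RnrL (45.5 ± 5.38), Mcm2 (41.9 ± 3.95), CycE (25.5 ± 6.50) and dup (22.6 ± 2.31). Neighbours overlapped in their libraries except at 2 steps, from mus209 to Mcm6 and from Mcm2 to CycE. On HFD the order opened with RnrS (78.8 ± 13.99) and mus209 (63.5 ± 3.10), which no longer overlapped each other, and from Mcm6 (42.6 ± 2.88) downwards each gene overlapped the next. CycE, at 30.2 ± 5.20 per kilobase on HFD, then stood between Mcm2 (32.7 ± 9.87) and Mcm5 (29.8 ± 8.42). On CGD, mus209 and RnrS led with 148 each, and CycE was last at 19.9 ± 4.71, overlapping dup at 23.5 ± 1.63. On HGD, CycE (26.3 ± 3.99) was above dup (21.3 ± 1.61) and below Mcm2 (33.7 ± 2.41), with no overlap between Mcm2 and CycE.

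Ratios of the deposited values of 2 members within a library do not depend on a size factor common to all its genes. CycE over mus209 was 1.92, 2.46 and 2.33 in the HFD libraries and 0.517, 1.23 and 1.21 in the CFD libraries. It was 1.73, 1.82 and 1.91 on HGD and 0.573, 0.753 and 0.577 on CGD. The ratio was higher in every high-sugar library than in every control library of either sugar. The pair was chosen after its values were seen, so no test is given. mus209 over dup was 1.22, 0.885 and 0.943 on HFD, against 2.89, 1.47 and 1.73 on CFD, and 1.17, 1.16 and 0.930 on HGD, against 2.46, 2.07 and 1.90 on CGD, again without overlap. The ratio of the reductase subunits, RnrS over RnrL, overlapped between the glucose diets (1.24 to 1.68 on HGD and 1.39 to 1.87 on CGD) and also between the fructose diets (1.01 to 1.64 on HFD and 1.62 to 2.10 on CFD).

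**Figure D3:**
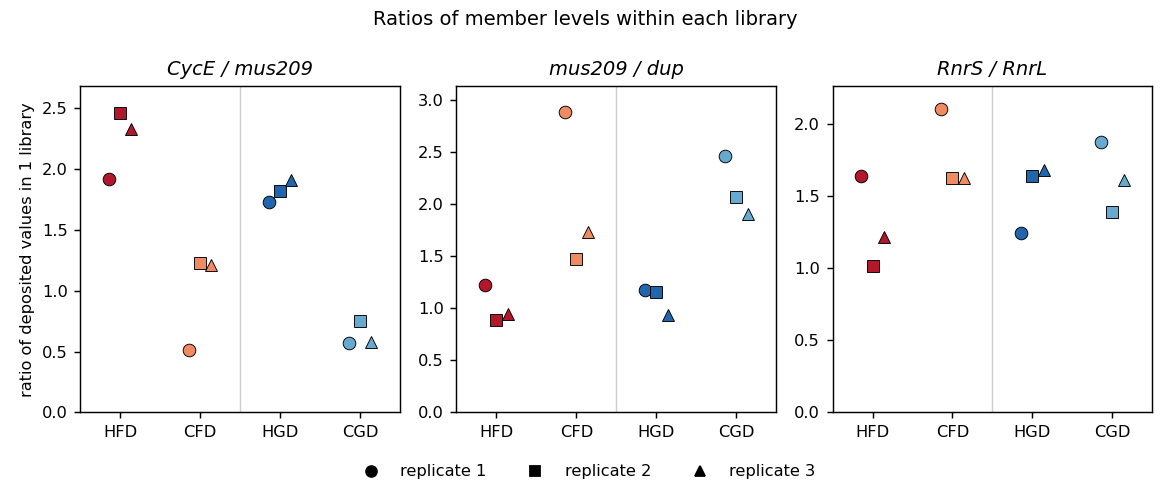
Ratio of the deposited values of 2 genes in the same library (vertical axis from 0), for CycE over mus209, mus209 over dup and RnrS over RnrL, in the 3 libraries of each diet. CycE over mus209 lies between 1.73 and 2.46 in the high-sugar libraries and at or below 1.23 in the control libraries.

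Across the 12 libraries the 7 members that fell on glucose moved together, with pairwise Pearson r of 0.65 to 0.96 (21 pairs, median 0.88), a description to which the diet contrast itself contributes. After each diet's mean was removed, the same pairs ran from -0.19 to 0.89 with a median of 0.57, and these deviations share the library and its scaling. CycE and dup, which had r of 0.40 over the 12 libraries, had 0.82 in their deviations from the diet means. Within diets the members were not ranked alike: HFD replicate 2 was highest of its diet for 8 members and lowest for RnrS, CFD replicate 1 was highest for the 7 members named and lowest for CycE and dup.

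The genes most like the 9 members over the 12 libraries, by the r of their log2 value with the mean of the members' standardised log2 values, were dpr7 (0.97), Orc6 (0.97), otk (0.96), Fen1 (0.96) and CG13409 (0.96). Orc6, the smallest subunit of the origin recognition complex, had 3.28 to 9.11 on HFD and 9.70 to 15.1 on CFD, and 5.85 to 9.06 on HGD and 12.1 to 22.4 on CGD. Fen1, the flap endonuclease that trims Okazaki fragments and binds PCNA, had 18.9 to 24.4 on HFD, against 33.3 to 45.1 on CFD, and 23.4 to 33.2 on HGD, against 39.4 to 65.1 on CGD. dpr7, a member of the Dpr family of immunoglobulin-domain surface proteins, had 5.30 to 13.97 on HFD and 20.2 to 36.4 on CFD, and 7.81 to 10.1 on HGD and 27.4 to 45.4 on CGD. otk, which encodes a transmembrane receptor of the PTK7 family, had 58.8 to 88.5 on HFD and 132 to 151 on CFD, and 93.9 to 107.8 on HGD and 148 to 218 on CGD. Each of these 4 genes was lower in all high-sugar libraries than in the control libraries of its sugar, which follows from how they were picked, since the members' mean itself differed by diet in the same way.

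Of the 15 other licensing and initiation genes listed, HFD had 1 lower and 1 higher call and HGD had 4 lower and 1 higher, with medians of -0.36 and -0.39. Of all genes, 9.93% were called lower on HFD and 12.9% on HGD, and the list was not tested against them. Mcm3 fell on both sugars (-0.88 ± 0.25, adjusted p = 0.0244, on HFD and -0.84 ± 0.25, adjusted p = 0.0224, on HGD). geminin, the inhibitor of Dup, fell on HGD (-0.95, adjusted p = 0.0126) and had -0.66 on HFD (adjusted p = 0.084). dpa fell on HGD (-0.53, adjusted p = 0.0164) and had -0.42 on HFD (adjusted p = 0.065). The gene that rose was Psf2, a subunit of the GINS complex that completes the active helicase, with 0.89 ± 0.17 (adjusted p = 0.0027) on HFD and 1.28 ± 0.17 (adjusted p = 0.000145) on HGD. Its partner genes Psf1, Psf3 and Sld5 passed the test on neither sugar. The fourth licensing gene called lower on HGD was Orc6, and over the alternatives the number lower on HGD ran from 1 to 6.

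Among 24 genes of the fork (polymerase subunits, clamp loaders, single-strand binding proteins, ligase and chromatin assembly factors), 6 fell and 0 rose on HFD, and 9 fell and 0 rose on HGD. The medians were -0.43 and -0.34. The shares of all genes called lower were 9.93% on HFD and 12.9% on HGD, and the list was not tested against them. RPA2, part of the single-strand binding complex, had log2 fold changes of -1.26 on HFD (adjusted p = 0.000704) and -0.95 on HGD (adjusted p = 0.0030). RpA-70, of the same complex, passed the test on neither sugar (-0.25 and -0.31). RfC3 had -1.23 on HFD and -1.35 on HGD, and RfC4 had -1.15 on HGD, all called, while RfC4 had -0.65 on HFD (adjusted p = 0.0523). Both belong to the clamp loader that opens PCNA. Its other listed genes, RfC38 (-0.85 and -0.16) and Gnf1 (0.09 and -0.06), passed the test on neither sugar. Ts, the thymidylate synthase, had -0.98 on HFD and -0.91 on HGD, and dUTPase, which keeps uracil out of DNA, had -0.73 and -0.80, all called. Of the listed polymerase subunits, DNApol-alpha180 (0.21 and 0.12), DNApol-delta (-0.12 and -0.17) and DNApol-epsilon (0.28 and 0.20) passed the test on neither sugar. The same held for DNApol-alpha60 (-0.81 and -0.97) and DNApol-alpha73 (-0.34 and -0.69). DNApol-alpha50 had -0.74 on HFD (adjusted p = 0.141 in limma) and fell on HGD (-1.32, adjusted p = 0.0103). The number lower on HFD ran from 2 to 7 over the alternatives.

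The regulators of the endocycle were mostly not called. Among the 15 genes listed, a decrease was called for 1 on HFD, and on HGD a decrease for 1 and an increase for 1, with medians of 0.10 and 0.05. When single libraries were left out, the number lower ran from 0 to 1 on HFD and from 0 to 2 on HGD. Over all genes, 9.93% were called lower on HFD and 12.9% on HGD, and 16.7% higher on HGD. The list was not tested against these shares. E2f, the activator of S phase genes, had 677 ± 60.8 on HFD and 525 ± 49.1 on CFD (SD, n = 3, log2 fold change 0.36, adjusted p = 0.088), and 697 ± 90.3 on HGD and 480 ± 51.0 on CGD, where it passed the test (0.53, adjusted p = 0.0127). Cdk4, the partner of Cyclin D, fell on HGD (-0.53, adjusted p = 0.0312), and l(2)dtl, the substrate receptor through which the Cul4 ligase destroys E2f and Dup in S phase, fell on HFD (-0.76, adjusted p = 0.0406). Dp, Rbf, CycD, dap (the inhibitor of Cyclin E with Cdk2) and cdc2c (Cdk2) passed the test on neither sugar.

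**Figure D4:**
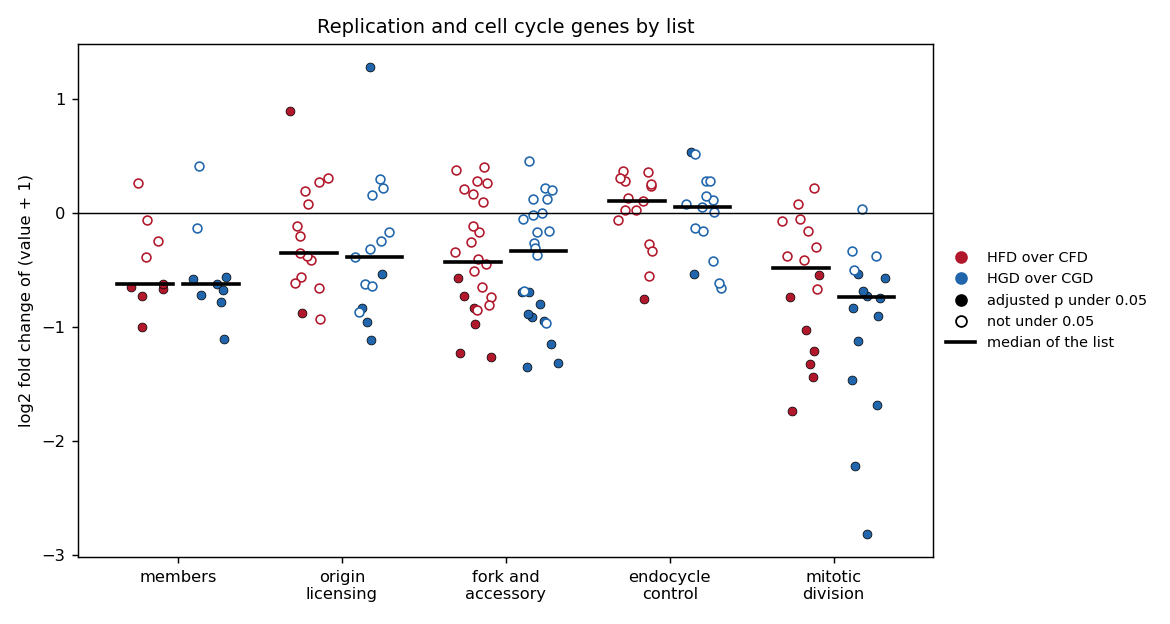
Log2 fold change of (value + 1) of each gene, by list, with HFD over CFD left of HGD over CGD in each list; filled points have an adjusted p under 0.05 and black lines are medians. The medians of the 9 members are -0.62 on each sugar, those of the mitotic list -0.48 and -0.74, and those of endocycle control 0.10 and 0.05.

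Genes of mitosis, a process that endocycling cells skip, were among those that fell. Of 16 listed, 7 fell on HFD and 12 on HGD, and 0 rose, with medians of -0.48 and -0.74. When single libraries were left out, the number lower ran from 4 (without CFD replicate 1) to 8 on HFD. On HGD it ran from 10 to 12. By comparison, 9.93% of all genes were called lower on HFD and 12.9% on HGD. The list was not tested against these shares. cdc2 (Cdk1) had -1.32 on HFD and -2.22 on HGD, pim (securin) had -1.74 and -2.82, ial (Aurora B) had -1.21 and -1.47, and Incenp had -0.74 and -0.90, all called. The summed level of the list was 1218 to 1663 in the HFD libraries and 1707 to 1983 in the CFD libraries, and 1394 to 1579 in the HGD libraries and 2274 to 2601 in the CGD libraries. No sum of a high-sugar library reached that of a control library of its sugar.

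Markers of other cells that can stay on a dissected fat body moved with the diets as well. Of all genes, 9.93% were called lower and 9.4% higher on HFD, and 12.9% lower and 16.7% higher on HGD. No marker list was tested against these shares, and some counts below are near them. Of 10 imaginal disc markers, which mark diploid cells that divide, 3 fell and 1 rose on HFD, and 5 fell and 1 rose on HGD, wg and nub being lower on both sugars and ap higher. When single libraries were left out, the number of disc markers lower ran from 2 to 3 on HFD and from 4 to 6 on HGD. Their summed level, in which ap and ct take a large part, was 1227 to 1299 on HFD and 1060 to 1406 on CFD, and 1347 to 1487 on HGD and 1196 to 1410 on CGD. Their mean level on the log2 scale, in which each marker counts alike, was 6.02 to 6.15 on HFD and 6.32 to 6.60 on CFD, and 5.90 to 5.97 on HGD and 6.26 to 6.52 on CGD, so it was lower in all high-sugar libraries than in the control libraries of the same sugar, as were the replication genes. Of 12 larval hemocyte markers, 5 fell and 1 rose on HFD, and 7 fell and 2 rose on HGD. The number lower ran from 3 (without CFD replicate 1) to 5 on HFD and from 6 to 7 on HGD when single libraries were left out. He had log2 fold changes of -2.82 on HFD and -2.83 on HGD, nimC1 -1.76 and -2.01 and Hml -0.96 and -0.99, while Pxn had 1.69 and 1.83, all called. The hemocyte sum, in which Pxn takes a large part, was 6348 to 8491 on HFD and 5108 to 7634 on CFD, and 8674 to 10212 on HGD and 5420 to 9847 on CGD. The mean log2 level of the hemocyte markers ran the other way and did not overlap, with 6.69 to 6.88 on HFD and 7.28 to 7.93 on CFD, and 6.76 to 6.93 on HGD and 7.46 to 7.96 on CGD. Of 12 muscle markers, 5 rose on HFD and 10 on HGD and 0 fell, and their sum was 30545 to 40250 on HFD and 15480 to 26806 on CFD, and 30188 to 44148 on HGD and 10096 to 18350 on CGD. The number of muscle markers higher ran from 2 (without CFD replicate 1) to 5 on HFD when single libraries were left out. On HGD it ran from 10 to 11. Of the 14 germline and ovary markers, 6 were listed, while vas, nos, aub, otu, bam, zpg, osk and bgcn were not among the listed genes. Of these 6, HFD had 1 higher and 1 lower call and HGD 1 higher and 0 lower. wisp had log2 fold changes of 3.82 on HFD and 4.35 on HGD, both called, and piwi had -1.75 on HFD (adjusted p = 0.0159) and -1.08 on HGD (adjusted p = 0.0874). Their summed level, most of it wisp on the high-sugar diets, was 1092 to 1741 on HFD and 268 to 414 on CFD, and 1202 to 1797 on HGD and 307 to 356 on CGD. All 9500 listed genes had at least 1 read in each library, so the presence of reads for these markers tells nothing particular about them. Why the other germline markers were not listed was not tested. The part that such cells had in the levels of the replication genes was not tested.

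Fat body markers were set beside those of other cells. Levels of different genes do not give shares of tissue, so the purity of the fat bodies was not tested. The 11 listed, with the storage proteins Lsp2 and Lsp1beta among them, had a mean level of 14.8 to 15.9 per library on the log2 scale, against 9.10 to 11.4 for the muscle and 6.69 to 7.96 for the hemocyte markers. On each high-sugar diet 3 of the 11 rose (CG3523, a fatty acid synthase, the lipase gene bmm and Lsd-1) and 1 fell (Lsp1alpha). When single libraries were left out, the number higher ran from 3 to 4 on HFD and from 3 to 5 on HGD. The number lower ran from 0 to 1 on each. The shares of all genes were 9.4% higher and 9.93% lower on HFD, and 16.7% higher and 12.9% lower on HGD.

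**Figure D5:**
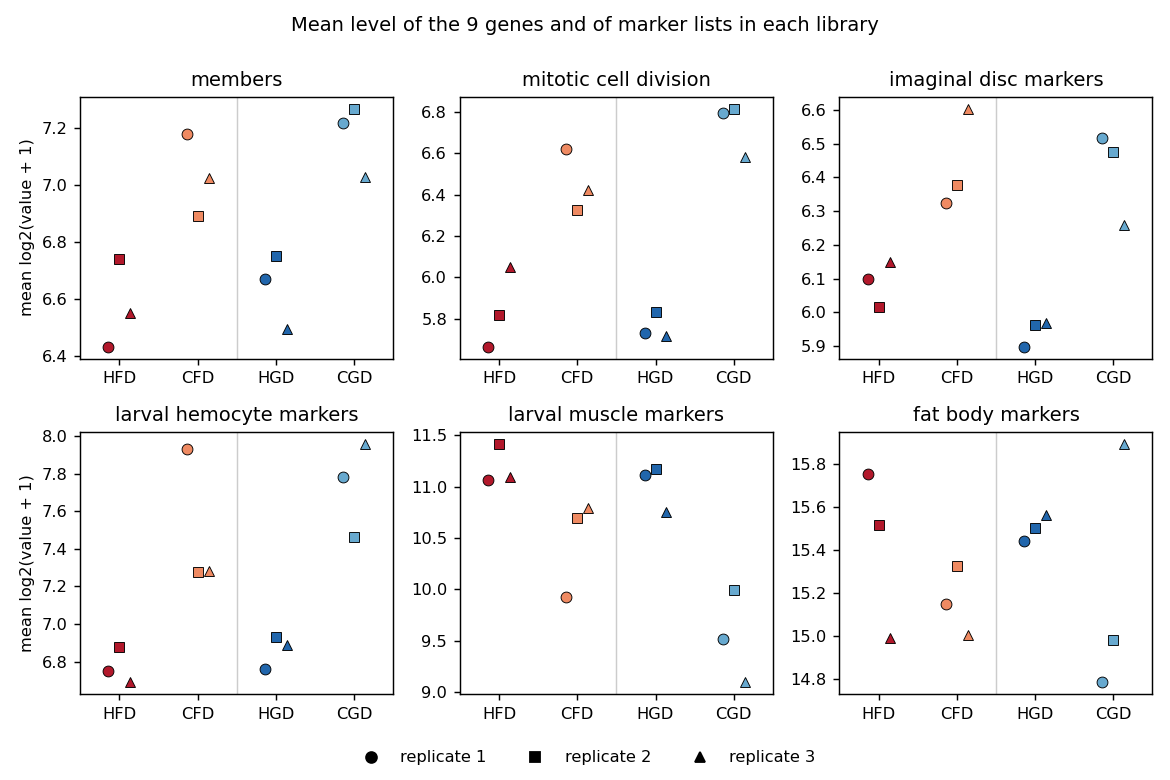
Mean log2(value + 1) of the 9 genes and of 5 marker lists in each library, with glucose values brought to the fructose scale and an axis of its own in each panel; marker shapes are replicates 1 to 3. The 9 genes, the mitotic list, the imaginal disc markers and the hemocyte markers are lower, and the muscle markers higher, in all high-sugar libraries than in the control libraries of their sugar, and CFD replicate 1 is highest of its diet for hemocyte markers (7.93) and lowest for muscle markers (9.92).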

How the data were processed

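RNA-seq libraries from 12 fat body samples, 3 per diet, were analysed. According to the study's methods, rRNA was depleted, reads were aligned to Ensembl_R72 with TopHat and Bowtie, genes were counted with HTSeq, and an exact test of counts was used. Listed in the submitters' own notes are Cufflinks 1.1.0, Bowtie 0.12.7 and TopHat 1.3.2 with the build dm3, and it is not settled which of these made the table. The authors deposited a signal per gene, read numbers adjusted to a common library size for fructose and for glucose separately, in 1 table of 9500 genes. Undoing that adjustment with a dispersion of 0.0402 for fructose and 0.0385 for glucose gave whole reads, within 0.1, for 99.99% of 104515 values under 1000 reads.

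Values were tested with limma 3.58.1 (R 4.3.3), with trend, on log2(value + 1), for genes with a mean of at least 1 (all 9500), with glucose values multiplied by 0.874. Replicates are called biological by the study, and p-values rest on the spread between their deposited values. The adjustment, as undone here, had moved each value around the gene's mean in its own diet. The spread within a diet was therefore not independent of the diet labels. limma-voom on the recovered reads, without that adjustment, called the same 5 members on fructose and the same 7 on glucose. Alternatives were other scalings, pseudocounts of 0.1 and 5, a mean of at least 10, no filter, the compared diets alone, the replicate number as a block, limma-voom on recovered reads, no sugar factor, and each library left out. The fits were also run on simulated counts, with the same dispersion for all genes and without the authors' adjustment. That run therefore does not show how the fits behave on the deposited values. Precision was set by 3 libraries per diet and by 25 to 357 reads per member.

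Members and lists were chosen with earlier results of these data known. Named were the members, up to 4 called genes per pathway list with the smallest adjusted p, and the 5 genes most alike. Other genes, among them the subunits of polymerase and GINS, ratios and markers, were named after their values were seen. Positions and exon lengths are those of Ensembl release 115 (BDGP6.54), not of the authors' build. An entry of the endocycle list, rum, matched no gene safely and was left out.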

Additional observations from a re-analysis of the deposited data

How the results depend on the processing

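Of the 9 members, the number called lower on HFD than on CFD was 5, and it ran from 2 to 5 when single libraries were left out, was 3 with only the diets compared, and was 4 under the replicate block, where Mcm7 was lost (adjusted p = 0.0608). On HGD over CGD it was 7, ran from 3 to 7 without single libraries and was 6 under the replicate block, where Mcm2 was lost (adjusted p = 0.0573). Calls held in 16 (fructose) and 17 (glucose) of 21 alternatives for Mcm5, in 19 and 19 for RnrS and in 19 (glucose) for RnrL. Whether the replicate numbers pair the samples was not settled. The correlations of same-numbered deviations ran from -0.362 to 0.206, but deviations within a diet sum to 0, so they cannot exclude a pairing. The same-numbered library correlated best in 3 cases for CFD with HGD, 2 for CFD with HFD and 1 for CGD with HGD. It did so in 0 cases for CFD with CGD, HFD with CGD and HFD with HGD. The block changed no other count. Counts for the other comparisons stayed at 0, and the pooled count at 7, in all alternatives. Scaling by library totals shifted the median of all genes by -0.21 on fructose and -0.20 on glucose and changed no count of members.

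Directions turned for log2 fold changes that had passed no test, and the cause was not tested. For HGD over HFD, without a factor between the sugars, RnrL had 0.18 and dup 0.18. With limma-voom, dup had 0.049 for HGD over HFD and RnrS had -0.022 for the difference between the responses. When single libraries were left out, dup ran from -0.19 to 0.11 for HFD over CFD and from -0.028 to 0.11 for CGD over CFD. For HGD over HFD the ranges were -0.080 to 0.31 for Mcm2, -0.016 to 0.12 for Mcm6, -0.064 to 0.20 for Mcm7, -0.019 to 0.25 for mus209, -0.10 to 0.053 for RnrL and -0.19 to 0.11 for dup. For the difference between the responses they were -0.34 to 0.053 for Mcm2, -0.093 to 0.26 for Mcm5, -0.36 to 0.0027 for Mcm7, -0.044 to 0.36 for CycE, -0.30 to 0.062 for mus209, -0.16 to 0.19 for RnrS and -0.25 to 0.048 for dup. Intervals of 0.31 to 0.50 on either side, and of 0.43 to 0.70 for the difference between the responses, limit what a null result can show.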
